A study of Rattus norvegicus with 13 samples.

Results

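The 40 genes described here carry fatty acids and ketone bodies from the blood into mitochondrial oxidation in heart muscle. They were picked by name and placed in 10 roles: uptake, activation, the carnitine shuttle, malonyl-CoA control, mitochondrial beta oxidation, peroxisomal beta oxidation, electron transfer to ubiquinone, thioesterases, uncoupling proteins and ketone use. All 40 are among the 38600 names in the tables of 6 and 8 months. The table of 2 months, with 25600 names, lists 39 of them and not Cd36. The data are bulk RNA sequencing of rat heart, with 13 samples that the labels call biological replicates. The labels do not say that each came from its own animal, so the p-values measure the spread between these samples. Control samples, called WT, have the genotype WT and no treatment, with 2 samples at 2 months and 3 at 6 months. Samples of the sonogenetic group, called ST, have the genotype MscL-G22S after transduction with AAV2/9-cTnT-MscL-G22S-mCherry, with 2 samples at 2 months, 3 at 6 months and 3 at 8 months. This adeno-associated virus carries a variant of MscL, the bacterial channel that opens under membrane tension, and the red fluorescent protein mCherry, under the cardiac troponin T promoter (cTnT), which is active in heart muscle cells. WT animals received no virus, so the virus and the channel cannot be told apart. There are no WT samples at 8 months here, and age, table and any difference in handling cannot be told apart in comparisons with those samples. The sources used here do not give whether the months count age or time since transduction, or whether ultrasound preceded collection.

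The adult heart draws most of its energy from long-chain fatty acids. CD36 and fatty acid transport proteins bring them through the membrane, acyl-CoA synthetases activate them, and the carnitine shuttle moves them into mitochondria at a step that malonyl-CoA inhibits. Inside, each round of beta oxidation shortens the chain and passes electrons to ubiquinone and NADH. Ketone bodies enter by a shorter route, in which BDH1 oxidizes beta-hydroxybutyrate to acetoacetate, OXCT1 adds coenzyme A and ACAT1 cleaves the product to acetyl-CoA.

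Each library held 4.70 M to 11.3 M counts in total. The transgene had 0 counts in all 5 WT libraries and 94 to 1667 counts in the ST libraries. Levels are given as CPM, a gene's counts per M counts of its library after TMM scaling. All 10 heart muscle cell markers were detected in every group, while the fat cell markers Cidec and Ucp1 stood at 0 in every group. Of the 10 fat cell markers, 6 stood at 0 in both groups at 2 months. At 6 months 5 did in WT, Plin1 and Retn among them, and 3 in ST (Adipoq, Cidec and Ucp1). At 8 months 4 did in ST. At 6 months 3 could be tested by edgeR, with log2 fold changes in ST from -0.13 to 6.3. Of these 1 was higher at an adjusted p under 0.05. In ST at 8 against 6 months 1 of 3 was lower, with values from -5.13 to -0.11. Summed fat cell markers were 117 to 145 CPM in WT and 123 to 153 CPM in ST at 6 months, and 103 to 122 CPM in ST at 8 months. Summed macrophage markers were 160 to 208 CPM in WT and 158 to 214 CPM in ST at 6 months, and 124 to 136 CPM in ST at 8 months. Summed red blood cell markers were 373 to 496 CPM in WT and 672 to 747 CPM in ST at 6 months, and 376 to 787 CPM in ST at 8 months. Other summed markers moved as well. Heart muscle cell markers were 121468 to 129973 CPM in WT and 114204 to 121134 CPM in ST at 6 months, and 128070 to 129510 CPM in ST at 8 months. Fibroblast markers were 1211 to 1290, 978 to 1041 and 1156 to 1240 CPM in the same groups. Endothelial markers were 1002 to 1274, 1243 to 1503 and 1407 to 1567 CPM, and smooth muscle and pericyte markers 207 to 286, 278 to 417 and 278 to 542 CPM. Neither the heart muscle nor the fibroblast sums overlapped between WT and ST at 6 months, but the single markers went both ways. Of 10 heart muscle cell markers 3 were higher and 1 lower in ST at an adjusted p under 0.05 by edgeR (median log2 fold change 0.09). Of 8 fibroblast markers 3 were higher and 4 lower (median -0.23). Red blood cell sums did not overlap at 6 months either, and all 5 markers tested were higher (median 0.85). Of 6 smooth muscle and pericyte markers 4 were higher and 0 lower (median 1.01). Endothelial markers were 5 higher and 2 lower of 10, and macrophage markers 2 higher and 1 lower of 10. Of all genes tested 19.9% were higher and 20.1% lower. At 2 months heart muscle cell sums were 158165 to 169377 CPM in WT and 172895 to 180495 CPM in ST. Fat cell sums were 34.3 to 43.1 and 49.9 to 73 CPM there. Red blood cell sums, with 4 of 6 markers listed, were 145 to 179 and 302 to 395 CPM. Smooth muscle and pericyte sums were 357 to 382 and 403 to 432 CPM. Those of macrophages, fibroblasts and endothelial cells overlapped. The part of these cell types in the results below was not tested. In bulk tissue, fewer cells of a type and less RNA per cell cannot be told apart. CPM values at 2 months cannot be set against later ones, because the tables list different names.

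At 2 months few of these genes differed between ST and WT, and those that did were Cpt1a, the liver-type isoform of the outer carnitine palmitoyltransferase, and Ucp2, a mitochondrial carrier of the uncoupling protein family. Both were higher in ST. That is 2 of 38 members tested (5.26%), where 2.7% of 12121 genes tested were higher at an adjusted p under 0.05 (edgeR quasi-likelihood test with Benjamini-Hochberg adjustment). None of the 38 was lower by edgeR, DESeq2 or limma-voom, where edgeR called 2.1% of all genes lower, and 3 were lower at an unadjusted p under 0.05. The median log2 fold change of the members was 0.07, against -0.00044 over all genes. Cd36 was not listed, and Acot1 had too few counts to be tested.

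At 6 months the members went in both directions. The 3 genes of ketone use were all higher in ST, Ucp3 was 4.26-fold higher, and the peroxisomal enzyme Ehhadh and the carnitine palmitoyltransferase Cpt1a were lower. In all, 11 of 40 members were higher (27.5%, against 19.9% of 13253 genes) and 8 were lower (20.0%, against 20.1%). The lower share was that of the background, and the higher share was above it by few genes. The median over the members was 0.012, against -0.0016 over all genes. With scaling by library size alone the median of all genes moved to -0.12, and the split became 6 higher and 13 lower. The difference between ST and WT itself changed from 2 to 6 months for 11 of 39 members (28.2%, against 22.2% of 12658 genes), by the interaction term of the edgeR model. The plot of ST against WT by role shows the values at both times.

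**Figure D1:**
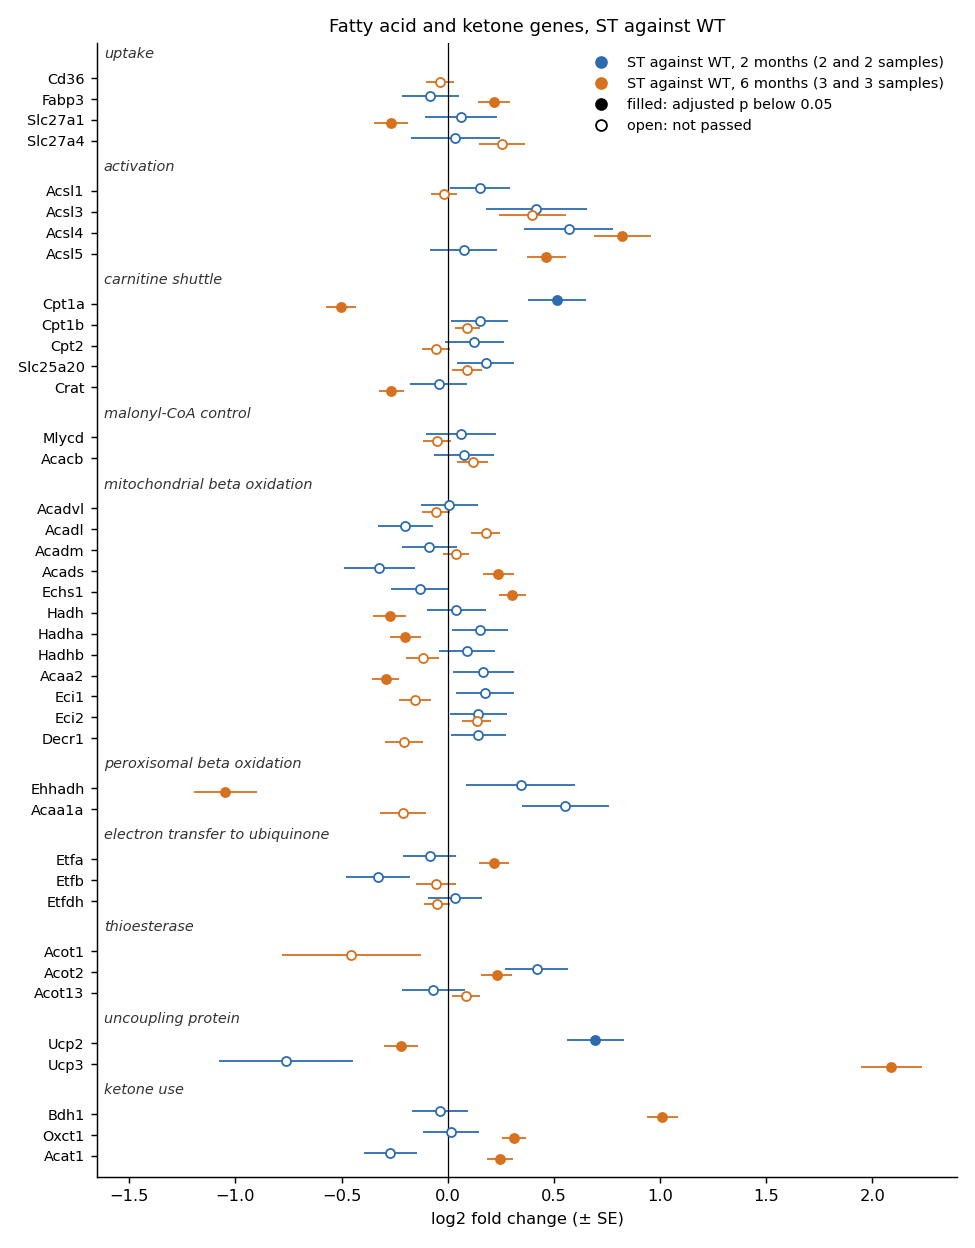
Log2 fold change of ST against WT for the 40 genes, by role, at 2 months (2 and 2 samples) and at 6 months (3 and 3 samples). Points are the fitted values, lines are one standard error to each side, and filled points passed an adjusted p of 0.05. At 6 months Ucp3 lies at 2.09 and Bdh1 at 1.01, and Ehhadh lies at -1.05.

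In ST samples of 8 against 6 months, 6 of 39 members tested were higher (15.4%, against 19.1% of 12931 genes) and 10 were lower (25.6%, against 20.5%). The lower members included all 3 ketone genes, Ucp3, Acot2, Acsl4 and Cd36. The call of Cd36 was lost when its near-identical copies were summed, as given below. Ehhadh, Acaa2 and Ucp2 were among the higher members. The ST samples of 6 months also enter the comparison with WT at 6 months, with the opposite sign. A gene high or low in those samples by sampling alone would thus tend to go the other way here. Such reversals, here and below, are not read as a separate result. With scaling by library size alone the split was 13 to 7 and the median over all genes 0.080. The members' median was 0.019, as it was over all genes.

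Against WT of 6 months, 11 of 40 members were higher in ST of 8 months (27.5%, against 17.8% of 13095 genes) and 10 were lower (25.0%, against 16.1%). Of those that passed, Ucp3, Bdh1 and Acsl5 were furthest above WT, and Cd36, Acot2 and Slc27a1 furthest below. The place of Cd36 rests on its own row, and with its copies summed the log2 fold change was -0.18. The members' median was 0.06, against -0.0081 over all genes. Library size alone gave 8 higher and 11 lower, with a median of all genes of -0.072. This comparison shares its WT samples with the one at 6 months and its ST samples with the one before, so the values are set side by side below and their likeness is not read as a result.

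**Figure D2:**
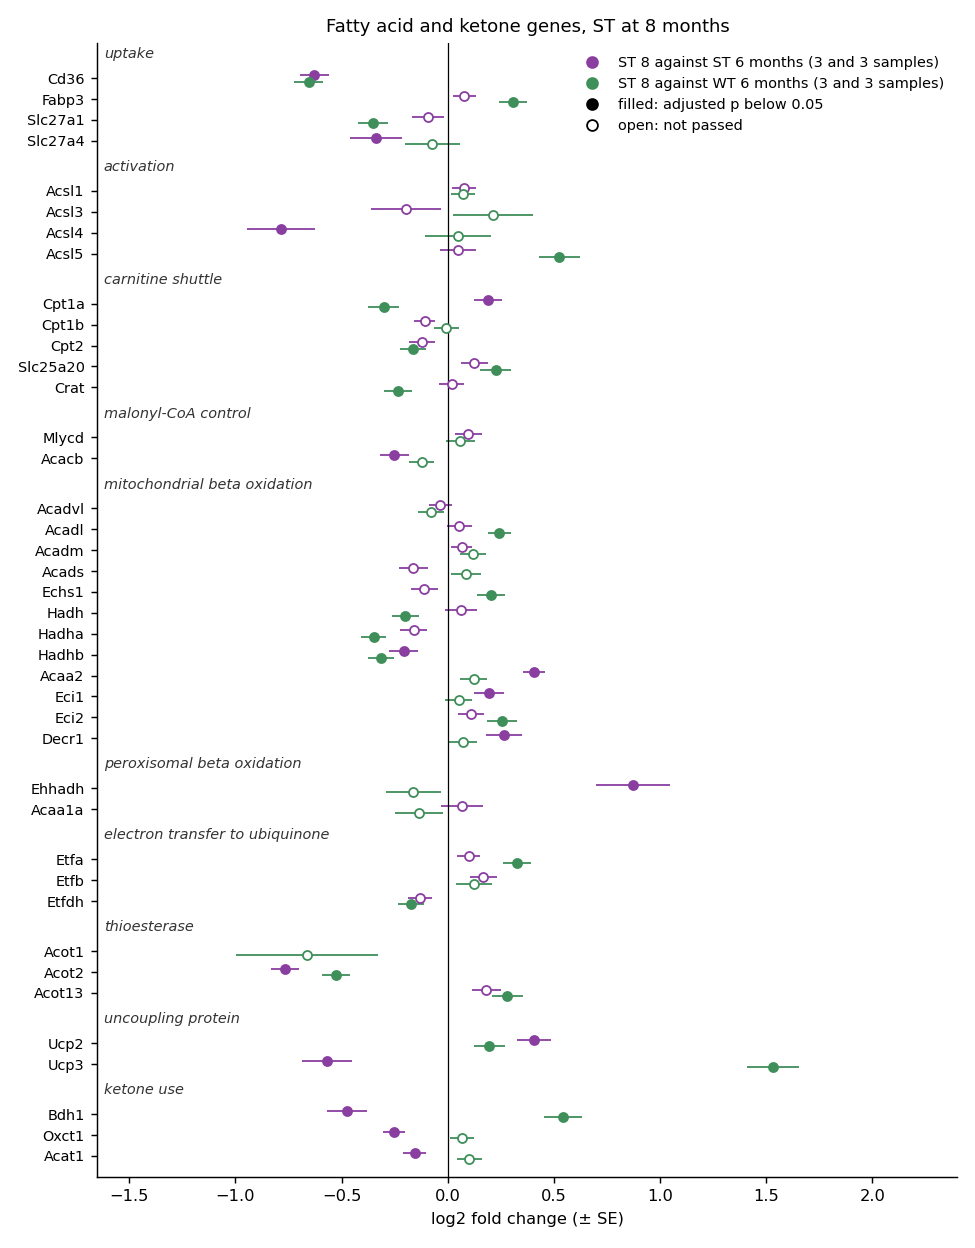
Log2 fold change of ST at 8 months against ST at 6 months and against WT at 6 months for the 40 genes, by role (3 and 3 samples each). Points are the fitted values, lines are one standard error to each side, and filled points passed an adjusted p of 0.05. Ucp3 lies at -0.57 against ST and at 1.53 against WT of 6 months.

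Uptake genes changed little at 6 months. Fabp3, the fatty acid binding protein of heart muscle, had 2544, 2929 and 2982 CPM in WT and 3138, 3506 and 3170 CPM in ST, with 3462, 3328 and 3589 CPM in ST at 8 months. All later ST samples were above all WT samples. The log2 fold change was 0.22 (SE 0.074, adjusted p = 0.035) at 6 months and 0.31 (SE 0.066, adjusted p = 0.0019) at 8 months against WT of 6 months. At 2 months Fabp3 had 1354 and 1434 CPM in WT and 1237 and 1397 CPM in ST, which overlap. Slc27a1, a fatty acid transport protein, had 160, 178 and 160 CPM in WT, 126, 150 and 136 CPM in ST at 6 months and 130, 125 and 132 CPM in ST at 8 months. It was lower in ST without overlap, by -0.27 (SE 0.081, adjusted p = 0.021) at 6 months. At 8 months it was lower by -0.35 (SE 0.069, adjusted p = 0.0010) against WT. The 6-month call of Fabp3 was lost without WT replicate 1 or 2 or any one ST replicate (adjusted p from 0.0517 to 0.0713) and with library size alone (0.245). That of Slc27a1 was lost without WT replicate 2 or ST replicate 1 or 3 (adjusted p from 0.0675 to 0.103), and in one fit over all groups. Slc27a4, another transport protein, was near the threshold at 6 months (0.25, adjusted p = 0.083) and lower at 8 than at 6 months in ST (-0.34, adjusted p = 0.041), a call that leaving out any one of the 6 libraries ended (adjusted p from 0.0514 to 0.141), as did library size alone, no filter, DESeq2 and one fit over all groups.

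Cd36, the main membrane receptor for long-chain fatty acids, has near-identical copies in the rat, and its value depended on how they were counted. The Cd36 row had 404, 425 and 433 CPM in WT and 397, 432 and 398 CPM in ST at 6 months, which overlap, and 281, 244 and 270 CPM in ST at 8 months, below all of them. The log2 fold change at 8 months was -0.63 (SE 0.067, adjusted p = 1.2e-05) against ST and -0.65 (SE 0.069, adjusted p = 2.6e-06) against WT of 6 months. The row Cd36l1, however, held 76.7% to 85.4% of the reads assigned to Cd36, Cd36l1 and Cd36-ps1 in these libraries. Its log2 fold change was 0.04 (adjusted p = 0.53) against ST and -0.08 (adjusted p = 0.32) against WT. With the 3 rows summed, the values at 8 months were -0.09 (SE 0.046, adjusted p = 0.16) against ST and -0.18 (SE 0.056, adjusted p = 0.020) against WT of 6 months. The share of the Cd36 row in the sum was 18.5% to 22.3% at 6 months and 13.8% to 15% at 8 months. At 2 months only Cd36l1 is listed, and it was higher in ST (0.51, SE 0.14, adjusted p = 0.0495).

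The acyl-CoA synthetases attach coenzyme A to fatty acids, and their isoforms differed from each other. Acsl1, the major isoform of heart muscle, had 1335, 1342 and 1291 CPM in WT and 1262, 1393 and 1257 CPM in ST at 6 months, with 1340, 1383 and 1408 CPM in ST at 8 months. These groups overlap and no comparison passed the test. At 2 months Acsl1 had 826 and 1002 CPM in WT and 967 and 1064 CPM in ST. Acsl4, which prefers arachidonic acid, had 11.1, 10.3 and 9.90 CPM in WT and 15.8, 21.0 and 18.1 CPM in ST at 6 months. ST lay above WT in every sample, by a log2 fold change of 0.82 (SE 0.13, adjusted p = 0.00051). At 8 months Acsl4 in ST had 11, 8.67 and 12.4 CPM, lower than at 6 months (-0.78, SE 0.16, adjusted p = 0.0019) and overlapping WT. At 2 months it had 10.7 and 11 CPM in WT and 19.0 and 12.8 CPM in ST (0.57, adjusted p = 0.15). Acsl5 was higher in ST at 6 months (0.46, adjusted p = 0.0019) and at 8 months against WT (0.52, adjusted p = 0.00057), and Acsl3 passed in no comparison (0.40 at 6 months, adjusted p = 0.060).

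Cpt1a catalyses the outer-membrane step of the carnitine shuttle, and is the lesser of the isoforms in adult heart. It had 49.99 and 51.6 CPM in WT and 66.5 and 78.8 CPM in ST at 2 months, then 95.4, 103 and 107 CPM in WT and 71.5, 72.7 and 70.2 CPM in ST at 6 months. The groups did not overlap at either time, with ST above WT at 2 months and below it at 6 months. The log2 fold changes were 0.51 (SE 0.14, adjusted p = 0.038) and -0.50 (SE 0.071, adjusted p = 0.00019), and the difference between them was -1.03 (SE 0.13, adjusted p = 6.4e-05, interaction term of the edgeR model). The 2-month call was lost without WT replicate 1 or 2 (adjusted p from 0.246 to 0.397) and with DESeq2, while that at 6 months held with every library left out. In ST at 8 months it had 79.0, 84.6 and 81.3 CPM, between both groups of 6 months. That was -0.30 (adjusted p = 0.0043) against WT and 0.19 (adjusted p = 0.041) against ST, the latter lost without ST replicate 1 or 3 of 6 months or any one replicate of 8 months (adjusted p from 0.0634 to 0.149) and with no filter, DESeq2 or one fit over all groups.

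Cpt1b, the muscle isoform of the same enzyme, had 809, 756 and 772 CPM in WT, 831, 834 and 819 CPM in ST at 6 months and 766, 758 and 784 CPM in ST at 8 months. It passed in no comparison, and the value at 6 months was 0.09 (SE 0.059, adjusted p = 0.24). At 2 months it had 398 and 456 CPM in WT and 435 and 512 CPM in ST. Taken within each library, Cpt1a had 11.8, 13.6 and 13.8 counts per 100 Cpt1b counts in WT and 8.60, 8.72 and 8.58 in ST at 6 months, and 10.3, 11.2 and 10.4 in ST at 8 months. At 2 months it had 12.6 and 11.3 in WT and 15.3 and 15.4 in ST. This ratio does not depend on the scaling between libraries, and ST lay outside WT at 2 and at 6 months, as did ST of 8 months against WT of 6 months.

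Of the other shuttle genes, Crat, the carnitine acetyltransferase that buffers acetyl-CoA, was lower in ST at 6 months (-0.27, SE 0.061, adjusted p = 0.0046). At 8 months it was -0.24 (SE 0.066, adjusted p = 0.011) against WT, a call lost without replicate 1 or 2 of 8 months (adjusted p from 0.05 to 0.0686). Cpt2, the inner-membrane transferase, had 290, 274 and 280 CPM in WT, 279, 253 and 279 CPM in ST at 6 months and 248, 244 and 255 CPM at 8 months. The 8-month samples were below all WT samples (-0.17, adjusted p = 0.048), but without WT replicate 2 or 3 or any one 8-month replicate the call was lost (adjusted p from 0.0645 to 0.145), as it was with other size factors, no filter, DESeq2 or one fit over all groups. Slc25a20, the carnitine-acylcarnitine carrier, had 253, 280 and 285 CPM in WT, 290, 281 and 296 CPM in ST at 6 months and 309, 297 and 342 CPM at 8 months. It was higher at 8 months against WT (0.23, adjusted p = 0.025), a call lost without WT replicate 1 or replicate 3 of 8 months (adjusted p from 0.0526 to 0.132), and with library size alone or one fit over all groups. At 2 months Cpt2 had 158 and 203 CPM in WT and 194 and 200 CPM in ST, and Slc25a20 had 122 and 141 CPM in WT and 138 and 159 CPM in ST, both overlapping.

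Malonyl-CoA, the inhibitor of the shuttle, is made at the mitochondrial surface by ACACB and removed by MLYCD. Acacb had 538, 523 and 519 CPM in WT, 532, 632 and 544 CPM in ST at 6 months and 473, 482 and 483 CPM in ST at 8 months. The samples of 8 months were the lowest, and only the comparison with ST of 6 months passed (-0.25, SE 0.069, adjusted p = 0.012). At 2 months Acacb had 536 and 625 CPM in WT and 552 and 671 CPM in ST. Mlycd passed in no comparison, with log2 fold changes from -0.05 to 0.10.

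Mitochondrial beta oxidation is the largest role, with 12 genes. Summed over them, WT of 6 months had 10529, 10995 and 10461 CPM, ST of 6 months 10349, 10602 and 10046 CPM, and ST of 8 months 10171, 10567 and 10722 CPM. The sums overlap between the 3 groups. At 6 months 5 of the 12 genes passed (41.7%), where 40% of all genes tested did, so this count is that of the background. Those higher in ST were Acads, the short-chain acyl-CoA dehydrogenase, and Echs1, the short-chain enoyl-CoA hydratase. Those lower were Hadha, the alpha subunit of the trifunctional protein that handles long chains, Hadh, the short-chain hydroxyacyl-CoA dehydrogenase, and Acaa2, the mitochondrial thiolase. At 2 months the 12 genes gave log2 fold changes from -0.32 to 0.18, and no call.

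Echs1 had 477, 478 and 477 CPM in WT and 591, 557 and 615 CPM in ST at 6 months, and 542, 508 and 587 CPM in ST at 8 months. Every later ST sample was above every WT sample. The log2 fold change was 0.30 (SE 0.063, adjusted p = 0.0026) at 6 months and 0.20 (SE 0.065, adjusted p = 0.023) at 8 months against WT, and the latter was lost without WT replicate 2 or 3 or replicate 1 or 3 of 8 months (adjusted p from 0.0535 to 0.112), and with library size alone or one fit over all groups. Acads had 306, 306 and 332 CPM in WT and 389, 341 and 382 CPM in ST at 6 months, with 319, 316 and 359 CPM in ST at 8 months and 206 and 239 against 141 and 216 CPM at 2 months. Its 6-month value was 0.24 (SE 0.073, adjusted p = 0.022), lost without WT replicate 1 or 2 or ST replicate 1 or 3 (adjusted p from 0.0505 to 0.0899), with library size alone (0.186) and in one fit over all groups. At 2 months Echs1 had 300 and 330 CPM in WT and 256 and 318 CPM in ST, which overlap.

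Acaa2 was lower in ST than in WT at 6 months and higher in ST at 8 than at 6 months. It averaged 1191 ± 69.0 CPM in WT and 970 ± 2.92 CPM in ST at 6 months, and 1286 ± 55.2 CPM in ST at 8 months (SD, n = 3 each). The log2 fold changes were -0.29 (SE 0.064, adjusted p = 0.0036) at 6 months and 0.40 (SE 0.051, adjusted p = 4.9e-05) from 6 to 8 months in ST. Both held in every alternative run. Against WT the 8-month value was 0.12 (SE 0.064, adjusted p = 0.16).

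Hadha and Hadhb, the subunits of the trifunctional protein, lie next to each other on chromosome 6 of the rat assembly GRCr8. Hadha had 1366, 1309 and 1257 CPM in WT, 1112, 1247 and 1056 CPM in ST at 6 months and 1006, 1038 and 1019 CPM in ST at 8 months. It was lower in ST at 6 months (-0.20, SE 0.071, adjusted p = 0.043), a call lost without any one WT replicate or without ST replicate 1 or 3 (adjusted p from 0.0517 to 0.188). At 8 months it was lower against WT in every alternative (-0.35, SE 0.058, adjusted p = 0.00024). Hadhb had 1826, 1982 and 1800 CPM in WT, 1611, 1931 and 1613 CPM in ST at 6 months, which overlap, and 1437, 1501 and 1536 CPM in ST at 8 months, below all WT samples. Its value against WT was -0.12 (adjusted p = 0.26) at 6 months and -0.31 (SE 0.061, adjusted p = 0.00083) at 8 months. From 6 to 8 months in ST it was -0.21 (adjusted p = 0.031), lost without ST replicate 2 of 6 months or any one 8-month replicate (adjusted p from 0.0508 to 0.0971), and with library size alone. At 2 months Hadha had 575 and 637 CPM in WT and 640 and 707 CPM in ST, and Hadhb had 826 and 931 CPM in WT and 904 and 968 CPM in ST.

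Of the dehydrogenases that open each cycle, Acadvl, for very long chains, had 777, 843 and 833 CPM in WT, 780, 827 and 747 CPM in ST at 6 months and 779, 762 and 761 CPM at 8 months. Acadm, for medium chains, had 1457, 1597 and 1469 CPM in WT, 1573, 1553 and 1515 CPM in ST at 6 months and 1548, 1662 and 1655 CPM at 8 months. Neither passed in any comparison, and their groups overlap. At 2 months Acadvl had 389 and 406 CPM in WT and 363 and 437 CPM in ST, and Acadm 779 and 749 against 678 and 761 CPM. Acadl, for long chains, was 0.18 at 6 months (adjusted p = 0.053) and higher at 8 months against WT (0.24, SE 0.055, adjusted p = 0.0030). Of the remaining enzymes, Hadh was lower against WT at 6 months (-0.27, adjusted p = 0.015), lost without WT replicate 2 or ST replicate 1 or 3 (adjusted p from 0.0636 to 0.0806). At 8 months its value was -0.20 (adjusted p = 0.023), lost without WT replicate 2 or replicate 1 or 3 of 8 months (adjusted p from 0.0655 to 0.119), and in one fit over all groups. The isomerase Eci2 was higher at 8 months against WT (0.26, adjusted p = 0.0100), lost without replicate 3 of 8 months (0.0558). The isomerase Eci1 and the dienoyl-CoA reductase Decr1, which serve unsaturated chains, were higher in ST at 8 than at 6 months (0.19 and 0.26, adjusted p = 0.042 and 0.025). Both were lost without ST replicate 1 or 3 of 6 months or replicate 1 or 3 of 8 months, and Eci1 also without replicate 2 of 8 months (adjusted p from 0.0912 to 0.181 for Eci1 and from 0.0710 to 0.115 for Decr1). Eci1 was lost too with other size factors, no filter, DESeq2 or one fit over all groups.

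The peroxisomal pair is represented by Ehhadh, the bifunctional enzyme, and Acaa1a, the thiolase, which shorten chains outside mitochondria. Ehhadh had 15.9, 16.9 and 17.5 CPM in WT and 10.2, 7.14 and 7.21 CPM in ST at 6 months. ST was 2.07-fold lower without overlap (log2 fold change -1.05, SE 0.15, adjusted p = 0.00020). The samples of ST at 8 months had 13.4, 17.3 and 13.8 CPM, 1.83-fold above ST of 6 months (adjusted p = 0.0017) and overlapping WT (-0.16, adjusted p = 0.37). At 2 months it had 6.03 and 10.5 CPM in WT and 9.07 and 11.5 CPM in ST, which overlap. Acaa1a had 10.8 and 9.10 CPM in WT and 12.7 and 17.0 CPM in ST at 2 months (0.55, adjusted p = 0.15), and 24.6, 29.9 and 31.2 against 25.0, 23.8 and 25.2 CPM at 6 months. It had 25.9, 27.3 and 24.4 CPM in ST at 8 months and passed in none of these comparisons.

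Electrons from the dehydrogenases pass through the flavoprotein ETF, made of ETFA and ETFB, to ubiquinone by way of ETFDH. Etfa had 490, 554 and 542 CPM in WT, 637, 587 and 616 CPM in ST at 6 months and 645, 659 and 669 CPM at 8 months. All later ST samples were above WT, by 0.22 (SE 0.071, adjusted p = 0.029) at 6 months and 0.33 (SE 0.066, adjusted p = 0.0012) at 8 months. Without WT replicate 1 or 3 or ST replicate 1 or 3 the 6-month call was lost (adjusted p from 0.0553 to 0.107), as it was with library size alone (0.246). Its partner Etfb had 311, 389 and 394 CPM in WT, 336, 375 and 340 CPM in ST at 6 months and 397, 408 and 378 CPM at 8 months, and passed in no comparison. At 2 months Etfa had 273 and 282 CPM in WT and 258 and 266 CPM in ST, and Etfb had 192 and 163 against 121 and 163 CPM. Etfdh was lower at 8 months against WT (-0.17, adjusted p = 0.037), lost without WT replicate 2 or 3 or any one 8-month replicate (adjusted p from 0.0502 to 0.165).

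Acyl-CoA thioesterases release free fatty acid from coenzyme A, in mitochondria by ACOT2. Acot2 had 459, 478 and 428 CPM in WT and 497, 570 and 529 CPM in ST at 6 months, then 310, 301 and 329 CPM in ST at 8 months. The 8-month samples were below all others. The log2 fold change was -0.77 (SE 0.066, adjusted p = 1.8e-06) against ST and -0.52 (SE 0.066, adjusted p = 1.8e-05) against WT of 6 months, and both held in every alternative run. At 6 months ST was above WT by 0.23 (SE 0.073, adjusted p = 0.025), a call lost without WT replicate 3 or ST replicate 2 or 3 (adjusted p from 0.0555 to 0.116), with library size alone (0.221) and in one fit over all groups. At 2 months Acot2 had 143 and 180 CPM in WT and 193 and 238 CPM in ST (0.42, adjusted p = 0.13). Acot1, its cytosolic neighbour on chromosome 6, is close in sequence, so reads could be split between the pair. Acot1 had 1.92, 2.32 and 2.27 CPM in WT, 1.70, 0.985 and 2.10 CPM in ST at 6 months and 1.48, 1.32 and 1.27 CPM at 8 months, and it passed in no comparison. At 2 months Acot1 had 0.446 and 0.157 CPM in WT and 0.623 and 0.471 CPM in ST. Acot13, a thioesterase bound to mitochondria, was higher at 8 months against WT (0.28, adjusted p = 0.0075), lost without replicate 1 of 8 months (0.0512).

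The uncoupling protein Ucp3 had the largest fold change of these genes at 6 months. UCP3 is the muscle member of this inner-membrane carrier family, and its expression is known to follow fatty acid supply. Ucp3 had 13.8, 10.5 and 13.9 CPM in WT and 52.7, 63.5 and 45.5 CPM in ST at 6 months. The lowest ST sample was above the highest WT sample, and the log2 fold change was 2.09 (SE 0.14, adjusted p = 6.3e-07). At 8 months ST had 34.8, 34.7 and 39.8 CPM, between the groups of 6 months. That was -0.57 (SE 0.12, adjusted p = 0.0024) against ST and 1.53 (SE 0.12, adjusted p = 1.2e-07) against WT. At 2 months the order was the other way, with 4.80 and 6.12 CPM in WT and 2.58 and 3.89 CPM in ST, but it did not pass (-0.76, SE 0.31, adjusted p = 0.20).

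The neighbour of Ucp3 on chromosome 1 is Ucp2, which is expressed in many cell types. In sign, Ucp2 went opposite to Ucp3 at 2 and 6 months, but not at 8 months against WT. It had 281 and 312 CPM in WT and 437 and 523 CPM in ST at 2 months, 1.62-fold higher (log2 fold change 0.69, SE 0.14, adjusted p = 0.0057), a call lost without WT replicate 1 (0.159). At 6 months it had 554, 523 and 579 CPM in WT and 494, 418 and 507 CPM in ST (-0.22, SE 0.081, adjusted p = 0.049). This call was lost without any one WT replicate or without ST replicate 1 or 2 (adjusted p from 0.0672 to 0.146), and with other size factors or one fit over all groups. At 8 months ST had 571, 629 and 682 CPM, above all ST samples of 6 months (0.41, SE 0.080, adjusted p = 0.0015) and overlapping WT. Against WT the value was 0.20 (adjusted p = 0.044), lost without WT replicate 2 or replicate 2 or 3 of 8 months (adjusted p from 0.115 to 0.202), and with library size alone or one fit over all groups. Per 100 Ucp2 counts there were 2.50, 2.00 and 2.4 Ucp3 counts in WT and 10.7, 15.2 and 8.96 in ST at 6 months. There were 6.09, 5.51 and 5.84 in ST at 8 months, and 1.71 and 1.96 in WT against 0.590 and 0.743 in ST at 2 months. ST lay below WT at 2 months and above it at 6 months, and ST of 8 months lay above WT of 6 months.

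**Figure D3:**
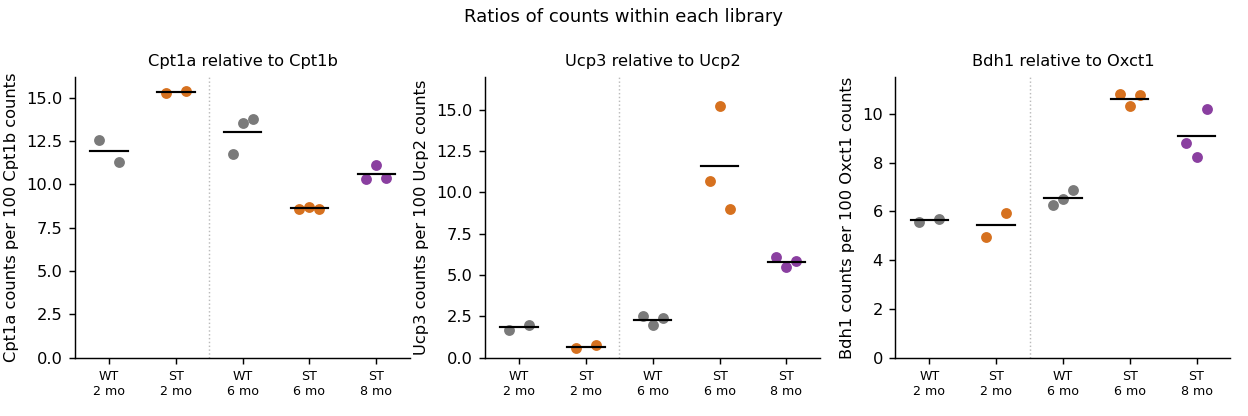
Counts of one gene per 100 counts of another in each library: Cpt1a per Cpt1b, Ucp3 per Ucp2 and Bdh1 per Oxct1. Points are samples, lines are group means, and the dotted line parts the 2-month table from the later ones. Ucp3 per 100 Ucp2 counts averages 2.30 in WT and 11.6 in ST at 6 months.

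Many of these genes are known as targets of PPAR-alpha and its partners, which bind a direct repeat of AGGTCA with 1 base between. The promoter windows (250 bases before to 50 after the start, from RefSeq, assembly GRCr8) of 36 members (not Cpt1b, Acadl, Acaa2 and Decr1) were searched on both strands for this repeat with up to 2 mismatches. It was found in 7 of 36 (19.4%), against 3.77% of 33469 windows. A match is a run of letters and not a shown site of binding, and the windows hold no distant elements. The 7 matches are shown with capitals where a base equals that of the repeat, and the seventh base, the spacer, in lower case.
Ucp3: AGGTttcAGGTCA
Acadvl: AGGTCAgtGGTCA
Echs1: AGaTCAgAGGTCt
Crat: AGGaCAccGGTCA
Etfa: AGGgCAaAGGTaA
Slc25a20: AGGTgAaAGGTCg
Acacb: gGGaCAaAGGTCA
Acadvl had 1 mismatch and the others 2. Of these genes Ucp3, Echs1 and Etfa were higher in ST at 6 months, Crat was lower, and Acadvl, Slc25a20 and Acacb did not pass. The exact half-site TNAAGGTCA of the estrogen-related receptors was in 0 of the 36 windows and 1.2% of all, and the E-box CACGTG in 0 of 36 and 6.42% of all, which says only that these letters are not in these windows.

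The whole windows are given for the member with the largest rise, Ucp3, and that with the closest match, Acadvl, with the match in capitals. Beside them stand Bdh1 and Ehhadh, the next largest changes at 6 months, whose windows hold no match. Ucp3 lies at chr1:164227660-164227959 (plus strand), Acadvl at chr10:55236656-55236955 (minus strand), Bdh1 at chr11:82842587-82842886 (minus strand) and Ehhadh at chr11:92746159-92746458 (plus strand).
Ucp3: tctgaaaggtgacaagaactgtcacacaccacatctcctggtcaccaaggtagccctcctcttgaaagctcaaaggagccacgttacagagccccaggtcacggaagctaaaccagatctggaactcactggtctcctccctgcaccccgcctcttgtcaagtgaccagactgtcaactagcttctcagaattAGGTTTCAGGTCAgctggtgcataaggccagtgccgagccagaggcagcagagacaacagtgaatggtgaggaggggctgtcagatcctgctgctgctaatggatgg
Acadvl: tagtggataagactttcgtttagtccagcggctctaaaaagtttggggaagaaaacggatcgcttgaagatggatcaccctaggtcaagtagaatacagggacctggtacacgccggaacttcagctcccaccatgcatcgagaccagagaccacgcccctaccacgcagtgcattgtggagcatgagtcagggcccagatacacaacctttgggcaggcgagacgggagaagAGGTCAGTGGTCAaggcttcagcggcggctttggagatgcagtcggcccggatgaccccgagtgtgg
Bdh1: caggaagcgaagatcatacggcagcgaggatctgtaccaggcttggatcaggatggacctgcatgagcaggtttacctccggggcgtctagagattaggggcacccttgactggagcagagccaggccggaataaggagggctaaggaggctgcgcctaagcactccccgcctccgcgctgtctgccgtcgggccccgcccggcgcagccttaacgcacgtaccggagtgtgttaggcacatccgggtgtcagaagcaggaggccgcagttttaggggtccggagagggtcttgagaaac
Ehhadh: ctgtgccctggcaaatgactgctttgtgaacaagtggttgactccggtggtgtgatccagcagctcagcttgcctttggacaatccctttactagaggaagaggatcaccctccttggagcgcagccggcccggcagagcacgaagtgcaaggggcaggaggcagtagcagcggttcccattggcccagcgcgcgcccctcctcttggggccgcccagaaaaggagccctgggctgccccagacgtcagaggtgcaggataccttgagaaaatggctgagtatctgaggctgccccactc

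Ketone use, with 3 genes, was the one role in which every gene passed in the same direction at 6 months. Of all genes tested, 19.9% were higher there. Bdh1, the first enzyme of the route, had 137, 144 and 147 CPM in WT and 301, 262 and 297 CPM in ST, 2.01-fold higher (log2 fold change 1.01, SE 0.074, adjusted p = 9.6e-07). Oxct1, the step that commits acetoacetate to oxidation, had 2188, 2205 and 2132 CPM in WT and 2781, 2543 and 2759 CPM in ST (0.31, SE 0.058, adjusted p = 0.0012). Acat1, the mitochondrial thiolase that also serves isoleucine breakdown, had 771, 786 and 780 CPM in WT and 934, 955 and 876 CPM in ST (0.25, SE 0.062, adjusted p = 0.0076). None of the 3 overlapped between the groups, which held for 24 of all 40 members. The share without overlap over all genes was not computed, so this lack of overlap is not read as a result. Only with scaling by library size alone was a call lost, that of Acat1 (adjusted p = 0.100).

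At 2 months the same 3 genes did not pass. Bdh1 had 97.4 and 99.8 CPM in WT and 88.1 and 104 CPM in ST, and Oxct1 had 1744 and 1752 against 1780 and 1751 CPM. Both overlap. Acat1 had 502 and 528 CPM in WT and 415 and 439 CPM in ST, lower in both ST samples without passing (-0.27, SE 0.13, adjusted p = 0.26).

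In ST at 8 months all 3 were lower than at 6 months. Bdh1 had 193, 183 and 243 CPM (-0.48, SE 0.095, adjusted p = 0.0016), still above every WT sample of 6 months (0.54, SE 0.090, adjusted p = 0.00022). Oxct1 had 2184, 2214 and 2386 CPM (-0.25, SE 0.051, adjusted p = 0.0018) and overlapped WT (0.07, adjusted p = 0.38). Acat1 had 819, 816 and 852 CPM (-0.16, SE 0.054, adjusted p = 0.036), a call lost without ST replicate 1 or 2 of 6 months or replicate 1 or 2 of 8 months (adjusted p from 0.0536 to 0.109), and with library size alone or one fit over all groups. Per 100 Oxct1 counts there were 6.26, 6.52 and 6.89 Bdh1 counts in WT, 10.8, 10.3 and 10.8 in ST at 6 months and 8.82, 8.25 and 10.2 in ST at 8 months. At 2 months there were 5.59 and 5.69 in WT and 4.95 and 5.95 in ST, which overlap. Both later ST groups lay above WT of 6 months in this ratio.

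**Figure D4:**
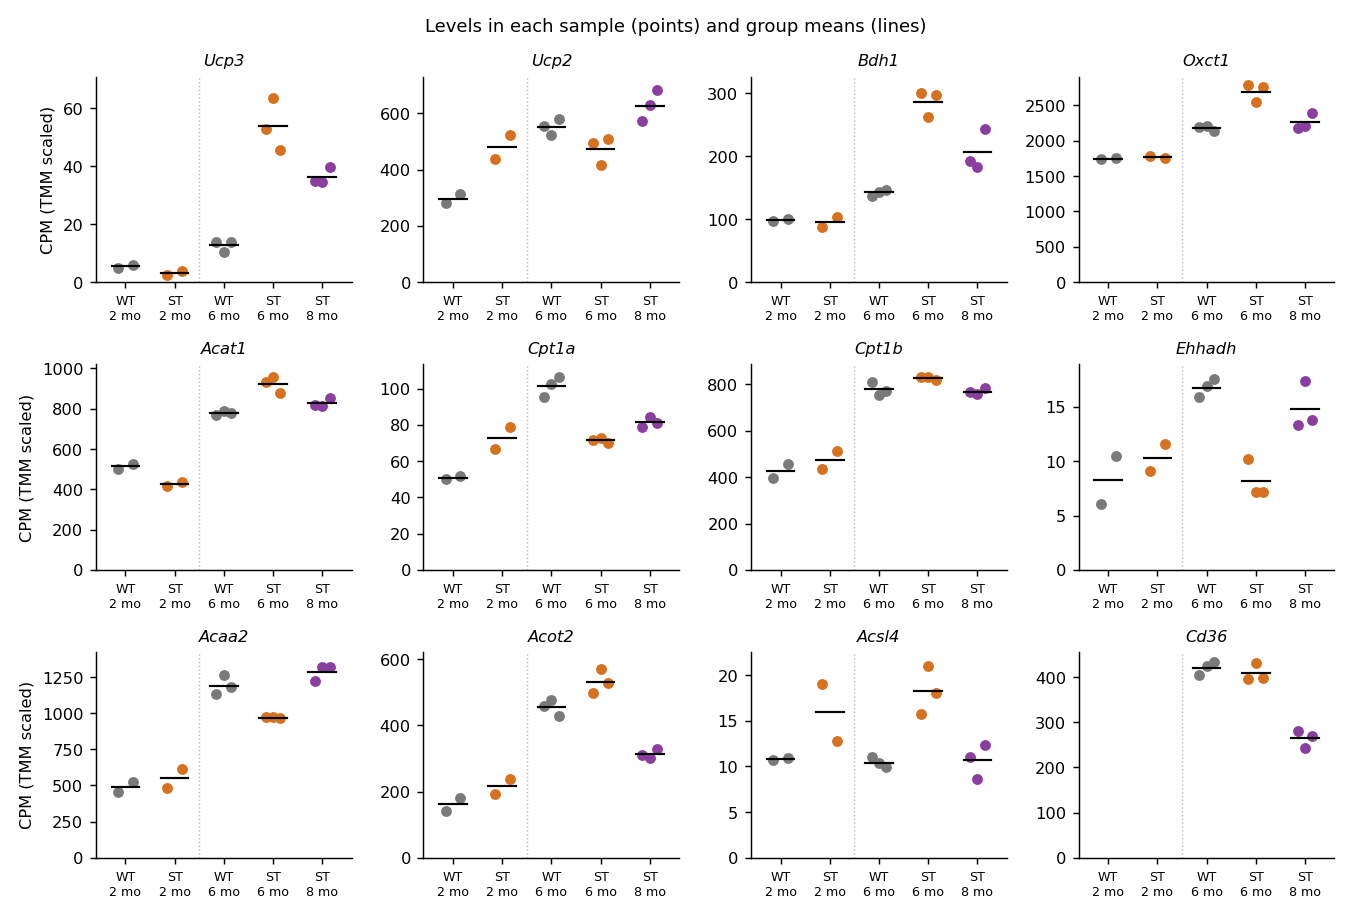
Level in CPM of 12 members in every sample (points) with group means (lines), for WT and ST at 2 and 6 months and ST at 8 months. The dotted line parts the 2-month table, whose CPM cannot be set against the others. Ucp3 reaches 45.5 to 63.5 CPM in ST at 6 months against 10.5 to 13.9 CPM in WT, and Cd36 is not listed at 2 months.

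The other genes of the pathway, 71 in all, include the delivery of fatty acids, carnitine supply, ketone synthesis and the regulators of oxidation. At 2 months 5 of 64 tested were higher in ST (7.81%, against 2.7% of all genes) and the other 59 did not pass. They were Pdk4, the kinase that shuts pyruvate dehydrogenase (1.92, adjusted p = 2.6e-07), the coactivator Ppargc1a (1.31, adjusted p = 1.1e-05), Gpihbp1, the endothelial anchor of lipoprotein lipase (1.13, adjusted p = 0.0032), the factor Klf15 (0.65, adjusted p = 0.013) and the lipase Lpl (0.53, adjusted p = 0.045). Pdk4 had 102 ± 1.37 CPM in WT and 386 ± 44.0 CPM in ST (SD, n = 2 each).

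At 6 months 18 of 67 were higher (26.9%, against 19.9% of all genes) and 14 lower (20.9%, against 20.1%). Pdk4 had the largest rise, with 113 ± 17.6 CPM in WT and 891 ± 136 CPM in ST (2.98, adjusted p = 9.35e-09). Angptl4, a secreted inhibitor of lipoprotein lipase and a known PPAR target, had 5.14 ± 0.582 and 37.7 ± 8.34 CPM (2.87, adjusted p = 3.3e-07). These are means with their SD (n = 3 each). The ketone and lactate carrier Slc16a1 was higher (0.51, adjusted p = 0.00063), as was the cytosolic Bdh2 (0.64, adjusted p = 0.0039). These belong to 6 genes of ketone synthesis and transport, of which 2 were higher and 1 lower. Their log2 fold changes ran from -2.02, the lowest of all 67, to 0.64. Slc22a5, the carnitine transporter, was lower (-0.68, adjusted p = 0.00041), as were Prkab1, a subunit of the energy sensor AMPK (-1.12, adjusted p = 2.7e-07), and the thioesterase Acot11 (-1.0, adjusted p = 5.7e-06). Among regulators Ppargc1a (0.83, adjusted p = 8.95e-05) was higher, and Klf15 (-0.78, adjusted p = 5.1e-06) was lower. In the peroxisome Hsd17b4 was higher (0.46, adjusted p = 0.00034) while Ehhadh was lower. Hsd17b4 is among 12 other peroxisomal genes, of which 3 were higher and 2 lower. Of these 12, 9 had a log2 fold change below 0 (median -0.14).

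In ST at 8 against 6 months 12 of 67 were higher (17.9%, against 19.1% of all genes) and 17 lower (25.4%, against 20.5%). Against WT of 6 months 18 of 66 were higher (27.3%, against 17.8%) and 17 lower (25.8%, against 16.1%). Pdk4 was lower than in ST of 6 months (-1.56, adjusted p = 7.2e-08) and higher than in WT (1.44, adjusted p = 7.45e-09), with 304 ± 17.9 CPM. Angptl4 had 26.6 ± 1.96 CPM (-0.51 and 2.37, adjusted p = 0.014 and 3.5e-09). Dbi, the acyl-CoA binding protein, was higher than in both (0.51 each, adjusted p = 3.2e-05 and 0.00039).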

How the data were processed

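The values are expected counts as deposited by the authors, mostly whole with a minority of fractions, in 3 tables of 1 time point each. The sources used here name no tool for this step (not given). The submitters' processing notes name GRCm38 and mm10, which are mouse builds, although the gene names are those of rat. Counts were rounded. Each comparison used its own libraries: genes were kept by filterByExpr, scaled by TMM and tested, two-sided, with edgeR 4.0.16 (glmQLFit and glmQLFTest) in R 4.3.3, with Benjamini-Hochberg adjustment over all genes tested and a threshold of 0.05. SE, the standard error, was approximated as the size of the log2 fold change over the root of its F statistic. TMM scaling of CPM ran over the 2-month table alone and over both later tables together. The change of the ST effect from 2 to 6 months was an interaction term over the 23018 shared names. In libraries of 4.70 M to 11.3 M counts, 3 counts are 0.266 to 0.639 CPM. The steps were tested on simulated data.

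The members, the lists of other genes and the tests were chosen with earlier results of these data known. Values in every sample are given for a set of central enzymes, for members with a called log2 fold change of at least 1 in size, and for the member of each role with the smallest p at 2 and at 6 months. Of the other genes, up to 3 per role and comparison with the smallest p could be named, and a selection of these is; some are not reported here. Alternatives were other size factors, library size alone, no filter or a filter of 5 CPM, DESeq2 1.42.0, limma-voom (limma 3.58.1), a replicate block, one fit over all groups, and leaving out each library. The sum of the Cd36 copies was chosen after seeing the data.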

Additional observations from a re-analysis of the deposited data

Results flagged for a closer look

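The difference between ST and WT itself differed between 6 and 2 months for 11 of 39 members tested (28.2%, against 22.2% of 12658 genes), by the interaction term of the edgeR model at an adjusted p under 0.05. The values below are the ST against WT log2 fold change at 6 months minus that at 2 months. It was positive for Ucp3 (2.84, SE 0.34, adjusted p = 2.7e-05), Bdh1 (1.04, SE 0.13, adjusted p = 6.3e-05) and Acat1 (0.50, SE 0.11, adjusted p = 0.0044). It was also positive for Acads (0.55, adjusted p = 0.046), Echs1 (0.42, adjusted p = 0.032) and Acadl (0.37, adjusted p = 0.032). It was negative for Cpt1a (-1.03, adjusted p = 6.4e-05), Ucp2 (-0.93, SE 0.15, adjusted p = 0.00034) and the peroxisomal enzymes Ehhadh (-1.40, SE 0.30, adjusted p = 0.0035) and Acaa1a (-0.77, SE 0.22, adjusted p = 0.019). It was negative for Acaa2 as well (-0.47, SE 0.14, adjusted p = 0.025). Those of Ucp3, Bdh1, Acat1, Cpt1a, Ucp2 and Ehhadh held in all 17 alternatives.

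The other 5 were lost when single libraries were left out. Acaa1a was lost without replicate 2 of WT or of ST at 2 months (adjusted p from 0.0770 to 0.0829). Acaa2 was lost without WT replicate 1 or ST replicate 2 of 2 months, WT replicate 2 or ST replicate 1 or 3 of 6 months (adjusted p from 0.0510 to 0.145). Acadl and Echs1 were lost without either WT replicate or ST replicate 1 of 2 months, WT replicate 2 or 3 or ST replicate 1 or 3 of 6 months (adjusted p from 0.0654 to 0.0900 and from 0.0543 to 0.140). Acads was lost without the same libraries and without WT replicate 1 of 6 months (adjusted p from 0.0525 to 0.213). Acadl, Echs1 and Acads were also lost with scaling by library size alone. The 2- and 6-month tables are separate, so time point and table cannot be told apart. Ucp3 had 2.58 to 6.12 CPM at 2 months, where 3 counts are 0.266 to 0.459 CPM.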

How the results depend on the processing

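Of 995 values of called genes under alternatives, 837 kept their call, 158 lost it and 0 changed direction. With library size alone the members were 6 higher and 13 lower at 6 months, and 13 were higher in ST at 8 against 6 months. At 2 months, without a filter, 4 members were higher and 1019 genes were called in all. DESeq2 gave 1 higher member and 359 genes there, and one fit over all groups gave 4 higher, 1 lower and 1237 genes.

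Leaving out each library gave at 2 months 0 to 4 higher members, 0 to 2 lower and 271 to 2013 genes called. At 6 months it gave 7 to 10 higher members, 4 to 10 lower and 4139 to 5520 genes. In ST at 8 against 6 months it gave 3 to 9 higher, 7 to 10 lower and 3964 to 5273 genes. Against WT of 6 months it gave 7 to 10 higher, 6 to 10 lower and 3521 to 4390 genes. The members whose ST effect differed between 6 and 2 months were 7 to 16. At 2 months, where this leaves a group with 1 sample, that sample is assumed to vary like those of the other group.

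The Cd36 call in ST at 8 against 6 months was lost when its copies were summed (adjusted p = 0.16). Samples of one replicate number correlated by 0.0039 to 0.18 in their deviations from the group mean. Deviations within groups of 2 or 3 samples depend on each other, so this cannot decide whether the numbers pair the samples. With the replicate block the members higher and lower were 2 and 0 at 2 months, 12 and 9 at 6 months, 8 and 12 in ST at 8 against 6 months, and 11 and 10 against WT, and 12 had a different ST effect. All genes called with the block were 636, 5435, 5427 and 4652. The 2 samples per group at 2 months, and low levels such as those of Acot1, limit what could be detected. Pairs of libraries within a group were also unequally alike, by the chi-square per degree of freedom of their counts. At 6 months it was 2.04 for WT replicates 2 and 3 and 1.85 for ST replicates 1 and 3. The other pairs of those groups gave 6.36 to 7.97, ST of 8 months 2.04 to 2.21, and 2 months 7.25 and 11.5. Whether any samples share an animal cannot be told.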

Other observations

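The enzymes of the citric acid cycle, into which the acetyl-CoA of these routes flows, were looked at as a list of 18 genes. At 2 months 16 of 18 had a log2 fold change below 0 in ST against WT and none passed by edgeR (median -0.11, 4 lower and 0 higher at an unadjusted p under 0.05). At 6 months 7 were higher in ST (38.9%, against 19.9% of all genes) and the other 11 did not pass, with a median log2 fold change of 0.10, against -0.0016 over all genes tested. Counted in either direction, the share was 38.9%, against 40% of all genes. In ST at 8 against 6 months 5 were higher and 5 lower (27.8% each, against 19.1% and 20.5%). At 8 months against WT of 6 months 10 were higher (55.6%, against 17.8%) and 2 lower (11.1%, against 16.1%), with a median of 0.19. Their summed level was 16284 to 16471 CPM in WT and 17858 to 18370 CPM in ST at 6 months, and 17196 to 18287 CPM in ST at 8 months. These ranges of ST lay above that of WT, whereas the summed mitochondrial beta oxidation enzymes overlapped. The sums rest on TMM scaling, and this list was not run with library size alone. That scaling moved the median of all genes to -0.12 at 6 months and to -0.072 at 8 months against WT.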
